A study of Mus musculus with 5 samples.

Results

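The 9 genes Actb, Actg1, Tmsb4x, Tmsb10, Cfl1, Pfn1, Coro1a, Lsp1 and Vim encode actins, thymosins and other cytoskeletal proteins of lymphocytes. They were chosen by name as a list, with no measured value in the rule, though earlier results of these data were known. The list was drawn from the 10291 genes listed in 4 count tables of sorted mouse CD4 T cells. The tables were made from cells of the colon after light, the colon without light, a lymph node after light and a lymph node without light, in a study of light treatment of autoimmune colitis. Treated mice received 5 minutes of light from a 980 nm laser every 2 days (1.22 W, a duty of 80%, a spot covering 4 cm2), and the control groups carry only the label control. Each of the 4 groups had 1 library, so differences have no replicate error behind them and p-values were not computed. Strain, age, the number of animals behind a library and the way colitis was induced are not given in the sources used here. Since these are bulk libraries, fewer cells of a type and less RNA per cell cannot be told apart.

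Actin cycles between single subunits and filaments, and a T cell rebuilds its filaments to crawl, to adhere and to form the contact with an antigen-presenting cell. Thymosins bind actin subunits and hold them in reserve, profilin passes subunits to growing filament ends, and cofilin severs old filaments and returns their subunits to the pool. The subunit pool is also read by a transcription cofactor of serum response factor, which binds the CArG box in the promoters of many actin genes.

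Tmsb4x and Tmsb10 are a pair of near relatives whose balance differed beyond counting error between the lymph node libraries and between the light libraries, and their coding sequences are printed to show how far the genes can be told apart. Each spans 135 bases from start to stop codon (GENCODE M21, mm10, minus strand, Tmsb4x on chromosome X and Tmsb10 on chromosome 6). The sequences align without gaps, with 95 equal bases (70.4%) and 40 that differ, which are in capitals.
Tmsb4x: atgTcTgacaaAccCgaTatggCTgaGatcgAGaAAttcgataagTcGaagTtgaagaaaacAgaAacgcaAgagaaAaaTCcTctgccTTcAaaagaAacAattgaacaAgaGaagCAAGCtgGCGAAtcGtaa
Tmsb10: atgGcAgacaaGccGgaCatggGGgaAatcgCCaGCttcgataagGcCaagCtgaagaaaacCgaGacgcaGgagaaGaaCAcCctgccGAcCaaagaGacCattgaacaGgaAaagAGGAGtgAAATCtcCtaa

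Positions are those of GENCODE M21 on the mm10 build. On the minus strand, Actb spans chr5:142903115-142906754, Actg1 chr11:120345690-120348542 and Pfn1 chr11:70651850-70654644. Also on the minus strand are Tmsb4x at chrX:167207093-167209315, Tmsb10 at chr6:72957347-72958748 and Coro1a at chr7:126699773-126707787. Cfl1 at chr19:5490455-5495201, Lsp1 at chr7:142460809-142494867 and Vim at chr2:13573927-13582826 are on the plus strand. The assay reads transcript ends, so the last 300 bases of each transcript were searched, in 251 windows of 50 bases, for windows found in another gene's transcripts. No window was shared between members, and 7 members had none shared with any gene. Tmsb10 shared 201 of its 251 windows (80.1%) with the gene model Gm9844, and Actb shared 21 (8.37%) with Lrrc58. Gm9844 and Lrrc58 had no counts in any table. The treatment of reads that match several places is unknown here, so the Tmsb10 level is uncertain.

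Of the 7 members with an entry in the RefSeq promoter table (GRCm38.p6, 10 promoters of 300 bases), Actg1 alone held a CArG box, against 1.63% of all 32851 promoters. The pattern of the box is its own reverse complement, so 1 search covers both strands, and a match is a description and not a bound site. Actb and Lsp1 were not searched. It is shown because Actg1 was the actin gene that was lower in the lymph node after light. The stretch chr11:120348545-120348645 on the minus strand covers 150 to 50 bases before the RefSeq start of Actg1 at 120348495, which differs from the GENCODE start given above, with the box in capitals.
Actg1: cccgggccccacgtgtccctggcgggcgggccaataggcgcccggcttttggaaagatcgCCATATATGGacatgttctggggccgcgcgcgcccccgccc
The box begins 90 bases before the RefSeq start.

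The summed counts used were 1959269 in the colon light, 433663 in the colon control, 1068832 in the lymph node light and 971204 in the lymph node control library. The barcode columns of a table repeat the same molecules, 50.1 to 84.2 columns per molecule when weighted by size, so these sums stand for 39078 molecule-equivalents in the colon light, 6210 in the colon control, 21152 in the lymph node light and 11536 in the lymph node control library. All 95% intervals are exact intervals on molecule-equivalents unless stated otherwise and cover counting error only. A list of 12 T cell markers took 0.287% of the colon light, 0.0341% of the colon control, 0.811% of the lymph node light and 0.959% of the lymph node control library. In the colon control Trac, Trbc1, Cd2, Cd28 and Cd247 were at 0, and Cd3d, Cd3e, Cd3g and Cd4 were not measured, since their lines repeat those of the lymph node control position by position. The T cell label of that library therefore rests on Trbc2, Lck and Lat, each below 1 molecule-equivalent. The 9 cytoskeleton genes showed no such repeats, the highest correlation between tables being 0.107 over 42 pairs. Ribosomal RNA and Gm12374 took 37.9% of the colon light, 23.8% of the colon control, 19.4% of the lymph node light and 15.0% of the lymph node control counts.

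Actb and Tmsb4x were among the 7 most abundant genes of 3 of the libraries, and the whole list was sparse in the colon control. Together the 9 genes made up 2.21% (95% interval 2.06 to 2.36) of the colon light, 0.512% (0.350 to 0.722) of the colon control, 3.50% (3.26 to 3.76) of the lymph node light and 3.96% (3.62 to 4.34) of the lymph node control counts. Levels are in CPM, the count scaled to a library total of 1e6, and a count is per transcript end and not per length. All 9 genes had counts in the colon light and both lymph node libraries. In the colon control 5 had counts, and Pfn1, Coro1a, Lsp1 and Vim were at 0, which does not show their absence, since a count of 0 allows up to 3 molecule-equivalents or 483 CPM.

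Actb, the main cytoplasmic actin, had 8061 CPM in the colon light, 860 CPM in the colon control, 11964 CPM in the lymph node light and 11820 CPM in the lymph node control library. It had rank 5 among the genes of the colon light, 91 in the colon control, 4 in the lymph node light and 7 in the lymph node control library. Tmsb4x, the chief thymosin that sequesters actin subunits, had 7892 CPM in the colon light, 2629 CPM in the colon control, 13680 CPM in the lymph node light and 14961 CPM in the lymph node control library. It was the highest of the 9 in every library but the colon light, where Actb and Tmsb4x did not differ beyond counting error. In the lymph node control and the colon control Tmsb4x stood above Actb beyond counting error, and in the lymph node light the pair could not be ordered.

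A middle tier was formed by Actg1, Tmsb10 and Cfl1. Actg1, the second cytoplasmic actin, had 1616 CPM in the colon light, 385 CPM in the colon control, 2388 CPM in the lymph node light and 3844 CPM in the lymph node control library. Tmsb10, the second thymosin, had 1979 CPM in the colon light, 826 CPM in the colon control, 1886 CPM in the lymph node light and 3643 CPM in the lymph node control library. Cfl1, which encodes cofilin, had 952 CPM in the colon light, 417 CPM in the colon control, 2139 CPM in the lymph node light and 1998 CPM in the lymph node control library. Actg1, Cfl1 and Tmsb10 could not be ordered in the lymph node light, whereas in the lymph node control Tmsb10 stood above Cfl1 beyond counting error.

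The lower tier lay near the depth limit. Pfn1, the profilin gene, had 508 CPM in the colon light, 0 in the colon control, 602 CPM in the lymph node light and 646 CPM in the lymph node control library. Coro1a, the coronin of blood cells, which mouse T cells need for survival and migration, had 390 CPM in the colon light, 0 in the colon control, 903 CPM in the lymph node light and 985 CPM in the lymph node control library. Lsp1, a filament-binding protein of leukocytes, had 380 CPM in the colon light, 0 in the colon control, 475 CPM in the lymph node light and 1234 CPM in the lymph node control library. Vim, the intermediate filament gene and the only member outside the actin system, had 289 CPM in the colon light, 0 in the colon control, 980 CPM in the lymph node light and 511 CPM in the lymph node control library. In no library did neighbours within this tier differ beyond counting error.

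**Figure D1:**
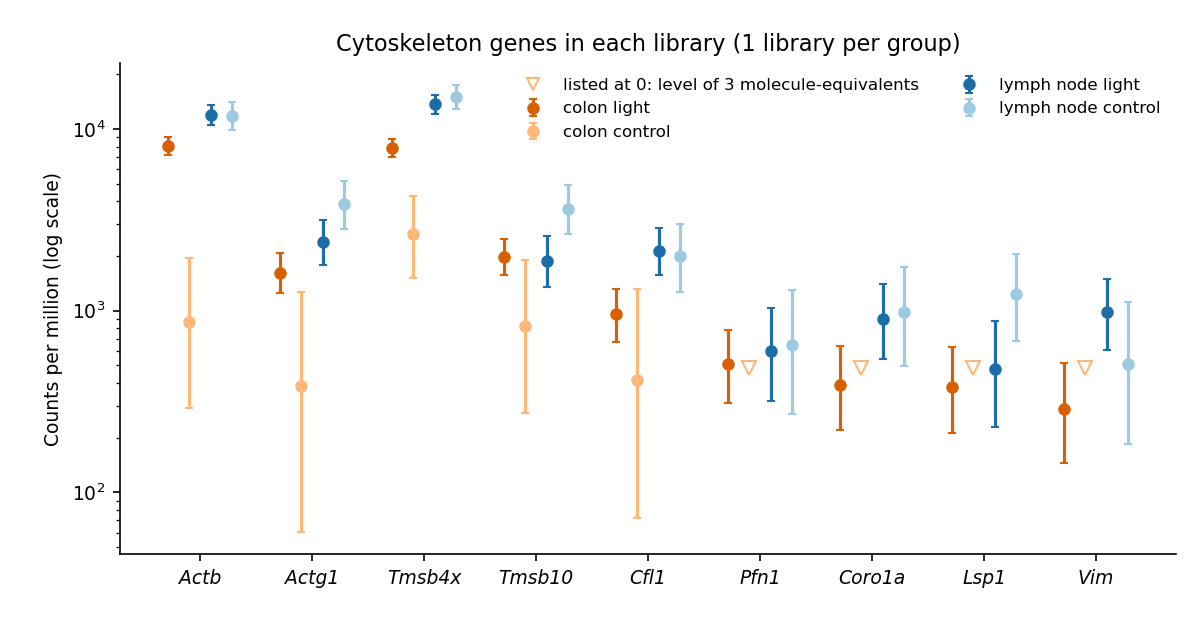
Levels in CPM (log scale) of the 9 genes in the 4 libraries, with exact 95% Poisson intervals on molecule-equivalents and open triangles at 483 CPM, the level that a count of 0 allows in the colon control. Actb and Tmsb4x lie between 7892 and 14961 CPM in the colon light and both lymph node libraries, and at 860 and 2629 CPM in the colon control.

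Within the summed counts of the 9 genes, Actb and Tmsb4x held most in each library. Actb made up 36.5% of the sum in the colon light, 16.8% in the colon control, 34.2% in the lymph node light and 29.8% in the lymph node control library. Tmsb4x made up 35.8% of the sum in the colon light, 51.4% in the colon control, 39.1% in the lymph node light and 37.7% in the lymph node control library. The Tmsb4x to Actb ratio was 0.979 in the colon light and 3.06 in the colon control, a log2 difference of -1.64 (normal 95% interval -3.07 to -0.21) for which the colon control held 16.3 molecule-equivalents of Tmsb4x and 5.34 of Actb.

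**Figure D2:**
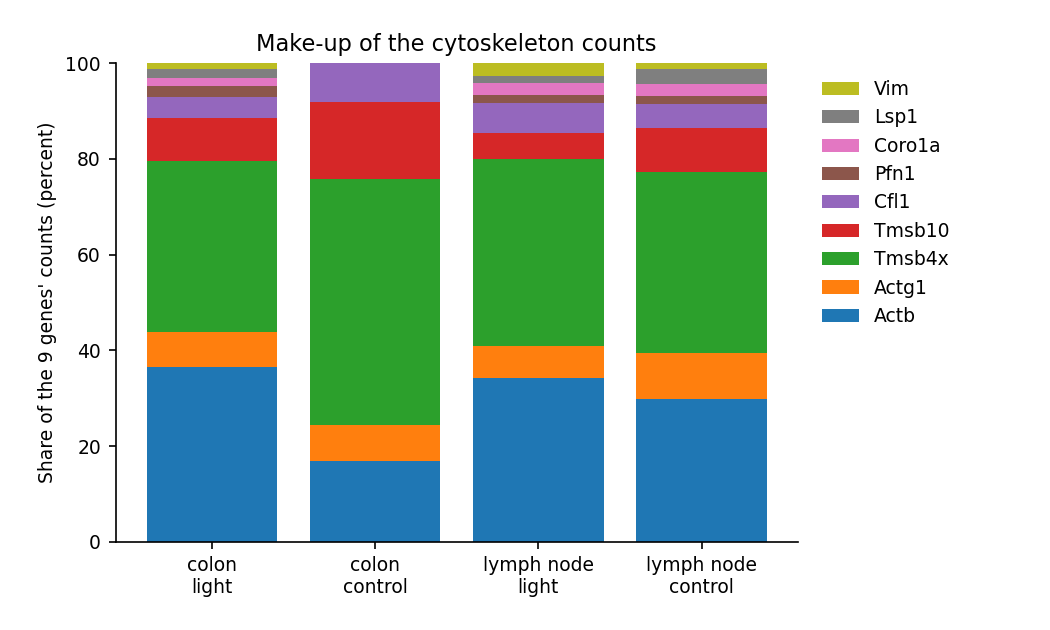
Share of each gene in the summed counts of the 9 genes (percent), a bar per library. Actb (bottom) is 36.5% of the colon light bar and 16.8% of the colon control bar, where Pfn1, Coro1a, Lsp1 and Vim are missing because they were at 0.

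In the lymph node, by CPM, the leading actin and thymosin genes were at nearly the same level with and without light, and Actg1, Tmsb10 and Lsp1 were lower after light. Actb had 11964 CPM in the lymph node light and 11820 CPM in the lymph node control library, a log2 ratio of 0.02 (-0.29 to 0.33). Tmsb4x had a log2 ratio of -0.13 (-0.41 to 0.15). Scaled by median-of-ratios over all genes counted in both libraries, Actb was at 0.50 (0.19 to 0.81) and Tmsb4x at 0.35. Their likeness between the libraries therefore depends on the scaling.

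Tmsb10 was 1.92-fold lower, with 1886 CPM in the lymph node light and 3643 CPM in the lymph node control library (log2 ratio -0.94, -1.61 to -0.29). Actg1 was 1.60-fold lower, with 2388 CPM in the lymph node light and 3844 CPM in the lymph node control library (log2 ratio -0.68, -1.30 to -0.07). Lsp1 was lowest by ratio, with 475 CPM in the lymph node light and 1234 CPM in the lymph node control library (log2 ratio -1.32, -2.70 to -0.11). These were the 3 members whose interval lay below 0. Each interval took in 0 when libraries were scaled by median-of-ratios over all genes counted in both, with Tmsb10 at -0.46 (-1.13 to 0.19), Actg1 at -0.20 (-0.82 to 0.41) and Lsp1 at -0.84 (-2.22 to 0.37). For Tmsb10 this was the only one of 11 alternatives that did so. Among the 11, a changed prior or count filter cannot alter an interval, and sums taken as raw counts can only narrow it. The Actg1 interval also took in 0 with scaling to well-counted genes (20 or more molecule-equivalents; -0.52, -1.14 to 0.09), a total without ribosomal RNA (-0.60, -1.22 to 0.01) and the deeper library thinned (-0.68, -1.43 to 0.03). The Lsp1 interval did so with scaling to well-counted genes (-1.16, -2.54 to 0.05), the deeper library thinned (-1.30, -3.12 to 0.13) and each recovered molecule counted once (-1.08, -2.25 to 0.02), on 15 molecules in the lymph node light and 15 in the lymph node control library.

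The filament-turnover genes and Vim were not told apart between the lymph node libraries. Cfl1 had a log2 ratio of 0.10 (-0.66 to 0.89), Pfn1 of -0.10 (-1.52 to 1.43) and Coro1a of -0.12 (-1.26 to 1.07). Vim had the highest ratio of the 9, at 0.90 (-0.43 to 2.56), from 980 CPM in the lymph node light and 511 CPM in the lymph node control library. Over the alternatives the Vim ratio ran from 0.28 to 1.38. Its 18 recovered molecules after light and 7 without are too few to place it on either side.

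Over the list, 1 of 9 members was at least 2-fold lower after light in the lymph node, against 5.85% of the 188 well-counted genes, those with 20 or more molecule-equivalents in the compared libraries together. No member (0 of 9) was at least 2-fold higher, against 5.32% of those genes. The interval lay below 0 for 3 of 9 members and for 9.04% of those genes. The median log2 ratio was -0.12 for the members and -0.16 for the 188 genes. Summed over the 9 genes, the ratio was -0.18 (-0.35 to -0.01), or 1.13-fold lower. Scaled to the 188 genes, which shifts all ratios by 0.16, the sum was at -0.02 (-0.19 to 0.15), and scaled to all 2516 genes counted in both libraries, whose median is 3.79 molecule-equivalents, it was at 0.30 (0.13 to 0.47). The direction of the sum in the lymph node therefore depends on the scaling.

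**Figure D3:**
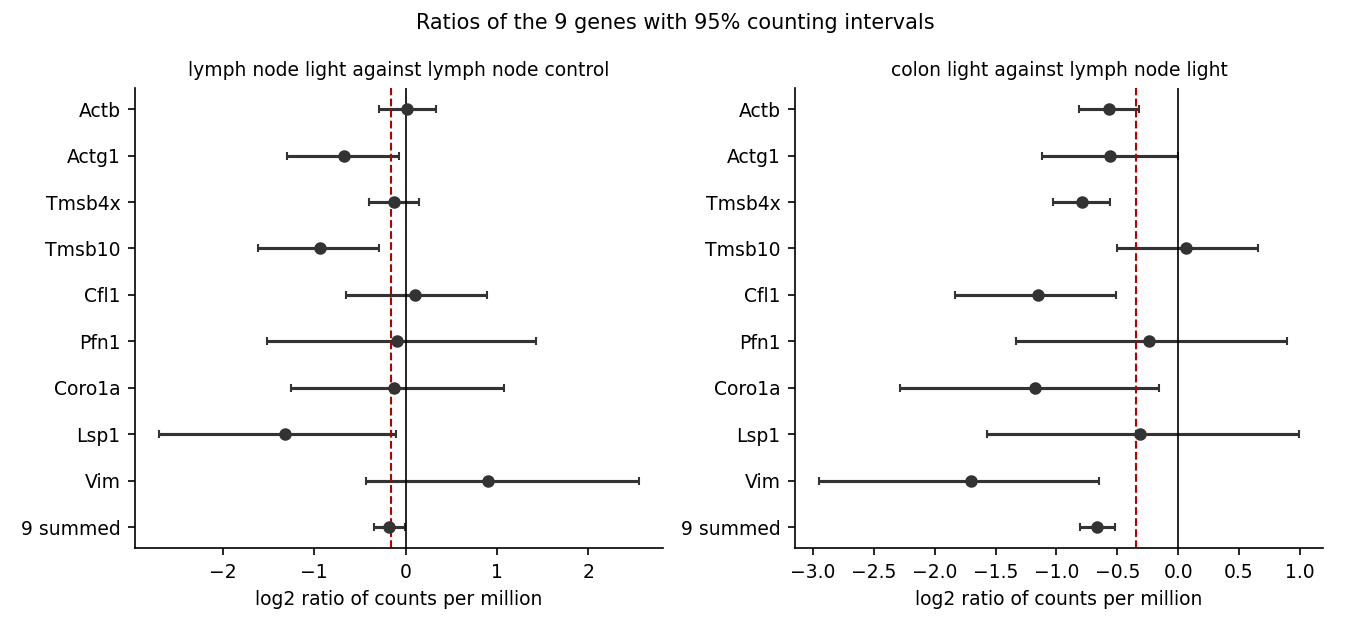
Log2 ratios of CPM with exact 95% counting intervals for the 9 genes and their sum, lymph node light against lymph node control (left) and colon light against lymph node light (right). The dashed line is the median of all well-counted genes, -0.16 on the left and -0.34 on the right. On the left Tmsb10, Actg1 and Lsp1 lie below 0, and on the right Vim, Coro1a and Cfl1 lie lowest.

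The balance within each pair of near relatives does not depend on the library total or its scaling. Tmsb4x made up 80.0% (75.6 to 83.8) of the thymosin pair in the colon light, 76.1% (53.0 to 91.6) in the colon control, 87.9% (83.9 to 91.2) in the lymph node light and 80.4% (74.5 to 85.5) in the lymph node control library. The lymph node light library thus stood above the colon light and the lymph node control libraries. There were 7.25 Tmsb4x counts for each Tmsb10 count in the lymph node light and 4.11 in the lymph node control library, a log2 difference of 0.82 (normal 95% interval 0.14 to 1.50). With each recovered molecule counted once the difference was 0.93 (0.28 to 1.57). Between tissues after light, the ratio was 3.99 in the colon light and 7.25 in the lymph node light library, a log2 difference of -0.86 (-1.46 to -0.27). Both differences include the uncertain Tmsb10 level, since most of its 3′ end is shared with Gm9844.

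Actb made up 83.3% (79.1 to 86.9) of the actin pair in the colon light, 69.1% (29.1 to 94.8) in the colon control, 83.4% (78.7 to 87.4) in the lymph node light and 75.5% (68.5 to 81.5) in the lymph node control library. There were 5.01 Actb counts for each Actg1 count in the lymph node light and 3.08 in the lymph node control library, a log2 difference of 0.70 (0.05 to 1.36). Counting each recovered molecule once brought this to 0.57 (-0.03 to 1.17), an interval that takes in 0. In the colon light the actin ratio was 4.99, beside 5.01 in the lymph node light library (log2 difference -0.01, -0.59 to 0.58). Of 12 ratio comparisons computed (3 ratios in 4 comparisons), 4 had an interval that left out 0.

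**Figure D4:**
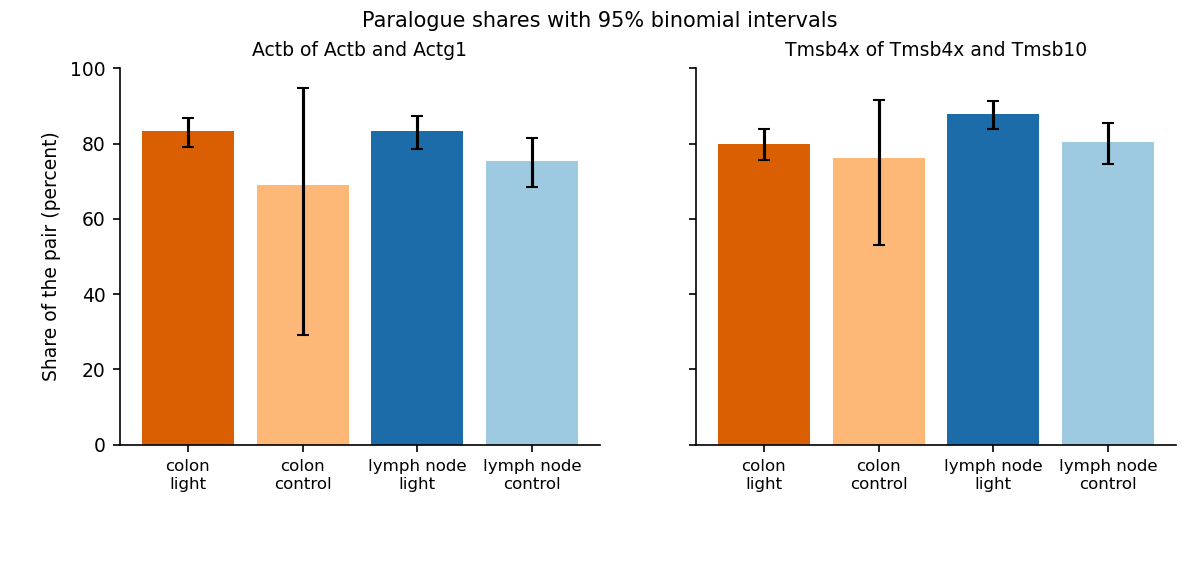
Share of Actb in the actin pair (left) and of Tmsb4x in the thymosin pair (right) in each library (percent), with exact 95% binomial intervals on molecule-equivalents. The lymph node light bar of the thymosin pair is the highest at 87.9%, and the colon control bars have the widest intervals.

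After light, 5 of the 9 genes were lower in colon cells than in lymph node cells beyond counting error, with the lowest ratios in Vim, Coro1a and Cfl1. Vim was 3.26-fold lower, with 289 CPM in the colon light and 980 CPM in the lymph node light library (log2 ratio -1.71, -2.95 to -0.65). Coro1a was 2.26-fold lower, with 390 CPM in the colon light and 903 CPM in the lymph node light library (log2 ratio -1.18, -2.28 to -0.16). Cfl1 was 2.23-fold lower, with 952 CPM in the colon light and 2139 CPM in the lymph node light library (log2 ratio -1.15, -1.83 to -0.51). With each recovered molecule counted once, Cfl1 stayed below 0 at -1.10 (-1.74 to -0.48), whereas Vim at -0.91 (-1.98 to 0.11) and Coro1a at -0.83 (-1.82 to 0.12) took in 0.

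The abundant genes were lower by less. Tmsb4x was 1.73-fold lower, with 7892 CPM in the colon light and 13680 CPM in the lymph node light library (log2 ratio -0.79, -1.03 to -0.56). Actb was 1.48-fold lower, with 8061 CPM in the colon light and 11964 CPM in the lymph node light library (log2 ratio -0.57, -0.81 to -0.33). Actg1 had the same size of difference with a wider interval (-0.56, -1.12 to 0.00). Tmsb10 did not follow the other thymosin, with 1979 CPM in the colon light and 1886 CPM in the lymph node light library (log2 ratio 0.07, -0.50 to 0.66). Pfn1 (-0.24, -1.33 to 0.90) and Lsp1 (-0.31, -1.57 to 0.99) were not told apart between the tissues.

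Between the light libraries 3 of 9 members were at least 2-fold lower in the colon, against 19.2% of the 302 well-counted genes, and 0 of 9 were at least 2-fold higher, against 13.2%. The interval lay below 0 for 5 of 9 members and for 24.2% of those genes. The median log2 ratio was -0.57 for the members and -0.34 for the 302 genes. The sum of the 9 genes was 1.59-fold lower in the colon light than in the lymph node light library (log2 ratio -0.67, -0.81 to -0.52).

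The colon light library held more ribosomal RNA and Gm12374, 37.9% of its counts beside 19.4% in the lymph node light library, which lowers the CPM of every other gene. Without these genes in the totals the sum was at -0.29 (-0.43 to -0.15), scaled to the 302 genes it was at -0.32 (-0.46 to -0.18), and scaled to all 3777 genes counted in both it was at -0.12 (-0.27 to 0.02). Actb (-0.19, -0.44 to 0.05) and Coro1a (-0.81, -1.91 to 0.22) took in 0 without ribosomal RNA, whereas Tmsb4x (-0.42, -0.65 to -0.18), Cfl1 (-0.78, -1.46 to -0.13) and Vim (-1.34, -2.57 to -0.27) did not. Scaled to all genes counted in both, Cfl1 took in 0 as well (-0.61, -1.29 to 0.03), and Tmsb4x (-0.25, -0.49 to -0.01) and Vim (-1.16, -2.41 to -0.11) stayed below it. Markers of other cells also differed between these libraries. The 12 myeloid markers, with Lyz2 the highest, took 0.246% of the colon light and 0.0670% of the lymph node light library. The 12 B and plasma cell markers, with Cd74 the highest, took 0.201% of the colon light and 0.0194% of the lymph node light library, with Ms4a1, Cd79a and Cd79b at 0 in both. The 12 T cell markers took 0.287% of the colon light and 0.811% of the lymph node light library, the 13 smooth muscle and fibroblast markers took 0.00903% of the colon light and 0.0329% of the lymph node light library, and all 12 epithelial markers were at 0 in every library. The part of other cells in these differences was not tested.

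In the colon, all 5 members with counts in both libraries had higher CPM after light, as had most other genes, with an interval above 0 for Actb, Tmsb4x and Actg1. A few genes took much of each colon total, which lowers the CPM of every other gene in that library. In the colon control Gm12374 had 176506 CPM, Trpc7 36595 and Tgm6 30046, beside 24687, 205 and 0 in the colon light. CT010467.1, taken here as ribosomal RNA, went the other way, with 284196 CPM in the colon light and 50168 in the colon control. Without ribosomal RNA and Gm12374 in the totals the log2 ratio was 3.485 (2.32 to 5.09) for Actb and 2.29 (0.59 to 5.07) for Actg1. Actb had 8061 CPM in the colon light and 860 CPM in the colon control library (log2 ratio 3.20, 2.03 to 4.79). Tmsb4x had 7892 CPM in the colon light and 2629 CPM in the colon control library (log2 ratio 1.58, 0.87 to 2.40). Actg1 had a log2 ratio of 2.01 (0.29 to 4.78), Tmsb10 of 1.24 (-0.01 to 2.90) and Cfl1 of 1.15 (-0.57 to 3.77), each on 5.13 or fewer molecule-equivalents in the colon control. Pfn1, Coro1a, Lsp1 and Vim were at 0 in the colon control, and their intervals took in 0, so no fold is given.

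Of the 206 well-counted genes of the colon libraries, 76.2% were at least 2-fold higher after light, as were all 5 members among them, which passed mainly through their colon light counts. Nothing about the members can be read from that count. The median log2 ratio was 2.19 for the 206 genes, with genes at 0 kept at the prior count. By that rule it was 3.20 for all 9 members and 1.58 for the 5 well counted. With genes at 0 set to 3 molecule-equivalents the 9 members were at 1.15, so their place beside 2.19 depends on the rule. The summed ratio of the 9 genes was 2.10 (1.60 to 2.67), and scaled to the well-counted genes with counts in both libraries it was 0.23 (-0.28 to 0.79), with Tmsb4x at -0.30, Tmsb10 at -0.63 and Cfl1 at -0.73. Of the 5 members, only Actb had an interval above 0 under that scaling (1.32, 0.15 to 2.92). Scaled to all 1146 genes counted in both libraries, whose median is 3.73 molecule-equivalents, the sum was 3.44 (2.94 to 4.01). The size of the sum in the colon therefore depends on the scaling.

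Without light, the members had lower CPM in the colon than in the lymph node. The interval lay below 0 for the 5 members with counts in both libraries, as it did for most of the 90 well-counted genes. Actb was at 860 CPM in the colon control, against 11820 CPM in the lymph node control library (log2 ratio -3.70, -5.36 to -2.56), and Tmsb4x was at 2629 CPM in the colon control, against 14961 CPM in the lymph node control library (log2 ratio -2.48, -3.34 to -1.77). Lsp1 and Coro1a were at 0 in the colon control, with the upper end of the log2 ratio interval at -0.86 for Lsp1 and at -0.49 for Coro1a. For Pfn1 and Vim, also at 0, the interval took in 0. All 5 members that were well counted lay past the 2-fold limit on the lower side, as did 67.8% of 90 genes. These members passed the count limit mainly through their lymph node control counts, so nothing about them can be read from that count. The median log2 ratio was -2.17 for the 90 genes, with genes at 0 kept at the prior count. By that rule it was -3.33 for all 9 members and -2.48 for the 5 well counted. It was -2.07 with members at 0 set to 3 molecule-equivalents, so the order depends on the rule. The summed ratio was -2.94 (-3.52 to -2.43), and -0.51 (-1.09 to -0.0047) when scaled to well-counted genes of both libraries, with Tmsb10 at 0.36 and Cfl1 at 0.31. The colon control also shares at most 5 barcodes with any other table, whereas the other 3 share 373 or 374 with each other.

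The light ratios of the tissues were set against each other for the members counted in all libraries. The difference, colon minus lymph node, was 3.18 (normal 95% interval 1.91 to 4.45) on the log2 scale for Actb, 2.69 (0.74 to 4.64) for Actg1 and 1.71 (0.94 to 2.47) for Tmsb4x. It was 2.18 (0.74 to 3.61) for Tmsb10, 1.05 (-0.90 to 3.01) for Cfl1 and 2.28 (1.74 to 2.82) for the sum. All of these rest on the colon control library, and with scaling to well-counted genes the difference of the sum was 0.25.

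A list of 98 other actin and cytoskeleton genes, of which 88 had a count in some library, was measured beside the 9 genes. Summed, they made up 1.43% (1.31 to 1.55) of the colon light, 0.409% (0.266 to 0.601) of the colon control, 1.97% (1.79 to 2.16) of the lymph node light and 2.23% (1.97 to 2.51) of the lymph node control counts. In the lymph node the summed log2 ratio of light against control was -0.18 (-0.41 to 0.05). Only 7 of these genes had 20 molecule-equivalents over the lymph node libraries, and 0 of 7 were at least 2-fold higher or lower, against 11.2% of all genes. They ranged from Myl6, a myosin light chain, at -0.40 (-1.37 to 0.57) to Arhgdib at 0.18 (-0.87 to 1.31).

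Between the light libraries, 15 genes of the wider list had 20 molecule-equivalents, of which 5 were lower in the colon by 2-fold or more, against 19.2% of all 302 well-counted genes, and 0 were higher by as much, against 13.2%. Dock2, which activates Rac in lymphocytes, had 252 CPM in the colon light and 808 CPM in the lymph node light library (log2 ratio -1.62, -2.98 to -0.47). Tagln2, an actin-binding transgelin of T cells, had 224 CPM in the colon light and 608 CPM in the lymph node light library (-1.38, -2.87 to -0.09). Cdc42, a small GTPase of cell polarity, had 304 CPM in the colon light and 773 CPM in the lymph node light library (-1.30, -2.56 to -0.18). Arhgdib had 483 CPM in the colon light and 1170 CPM in the lymph node light library (-1.25, -2.22 to -0.35). These ratios were not recomputed with totals that leave out ribosomal RNA and Gm12374.

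Not all of the 15 genes shared this difference. The interval lay below 0 for 6 of them and took in 0 for 9, beside 24.2% of the 302 well-counted genes below 0. The highest ratios were those of Wipf1, a partner of the Wiskott-Aldrich protein, at 0.60 (-0.77 to 2.24), and of Rac2, the Rac of blood cells, at 0.32 (-0.63 to 1.35). Arpc3, a subunit of the Arp2/3 nucleator, was at 0.06 (-1.19 to 1.43) and Lcp1, which bundles filaments, at 0.06 (-1.08 to 1.29). By role, the summed ratio was -0.95 (-1.74 to -0.19) for cofilin-related, capping and monomer-handling genes and -0.53 (-0.96 to -0.10) for Arp2/3 and nucleation genes. It was -0.57 (-1.07 to -0.07) for myosins and tropomyosins and -0.16 (-0.59 to 0.27) for crosslinkers and membrane linkers. The group of other thymosins and actins was at -0.998 (-1.79 to -0.24), nearly all of it from Ptma, whose product prothymosin alpha is a nuclear protein and no actin sequesterer, at -1.04 (-1.89 to -0.23). The whole list was at -0.46 (-0.65 to -0.28), and at -0.09 (-0.27 to 0.10) without ribosomal RNA and Gm12374 in the totals. Single genes and roles of the wider list were not recomputed with those totals. With them the upper end of the Actb interval went from -0.33 to 0.05, so gene and role intervals that end near 0 may take it in.

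**Figure D5:**
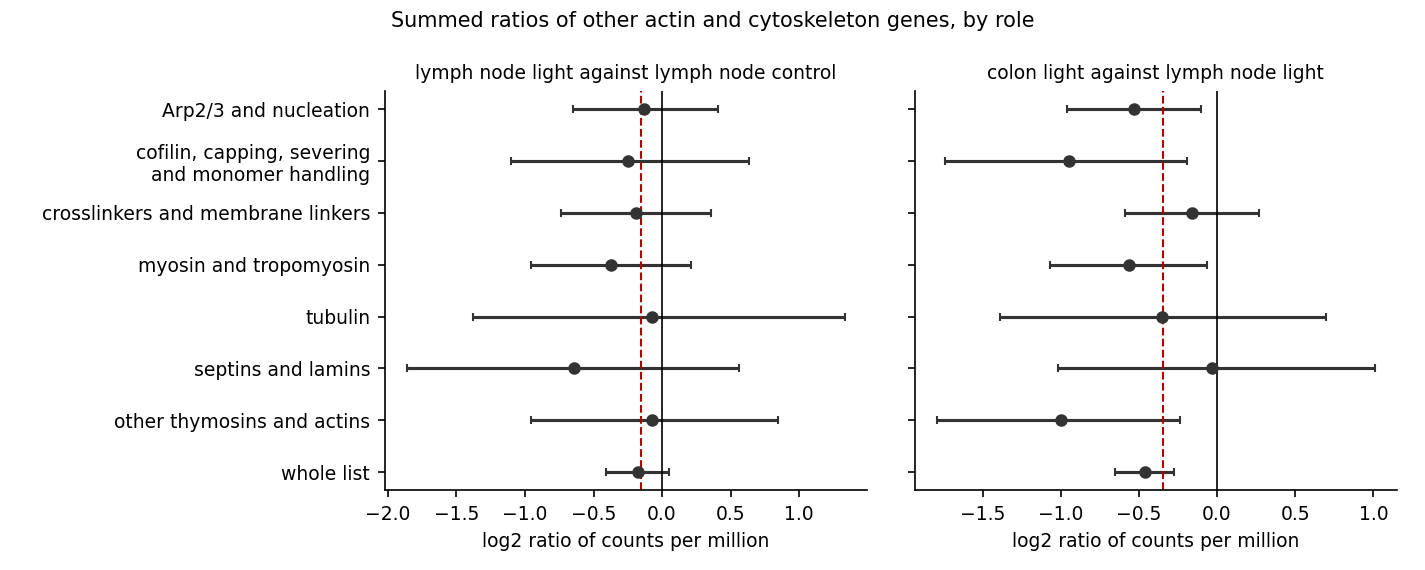
Summed log2 ratios of CPM with exact 95% counting intervals for 98 other actin and cytoskeleton genes by role, lymph node light against lymph node control (left) and colon light against lymph node light (right). The dashed line is the median of all well-counted genes. Every interval on the left takes in 0, and on the right the groups of other thymosins and actins (-0.998) and of cofilin, capping and monomer handling (-0.95) lie lowest.

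The genes whose profile over the 4 libraries was most like the summed 9 were sought among 54 genes with at least 20 molecule-equivalents in the colon light and both lymph node libraries. The measure was the distance between log2 CPM profiles centred on their own mean. Malat1, a nuclear noncoding RNA, was nearest at a distance of 0.142, with 7547 CPM in the colon light, 1803 CPM in the colon control, 11406 CPM in the lymph node light and 14770 CPM in the lymph node control library. The ribosomal protein genes Rpl34 (0.277), Rpl32 (0.280) and Rplp2 (0.284) and the chromatin protein gene Hmgb2 (0.290) followed. Among the 9 genes themselves the distance to their sum ran from 0.373 for Actg1 to 1.97 for Coro1a.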

How the data were processed

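CD4 T cells were sorted from mouse colon and lymph node, and their poly(A) RNA was reverse transcribed from the 3′ end per the labels' protocols, with sample barcodes of 7 and molecular identifiers of 8 bases. The submitters' processing notes name FastQC, STAR 2.5.1a and mm10. The counting method and its use of strand are unstated (not given in the sources used here). Per table, the authors deposited whole-number counts, genes in lines, under 379 to 384 barcode columns. The lymph node tables end in an unnamed line of column totals, 50.0% of all counts, which was left out.

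Counts were summed over columns and scaled to CPM per table. The lines of a table could be rebuilt from column patterns that several genes share, exactly for 95.7% to 99.9% of genes (47.2% to 79.7% of counts), which puts a molecule in 39.5 to 79.2 columns on average. Since columns thus overlap, they were treated neither as cells nor as replicates. Sums divided by the mean columns per molecule, weighted by size (50.1 to 84.2), give molecule-equivalents. A line was left out where it repeats another table's line by position (correlation above 0.5) and misses its own table's patterns by more than 0.4 of its size. This removed Foxp3 everywhere, and in the colon control the CD3 genes Cd3d, Cd3e and Cd3g as well as Cd4.

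Log2 ratios of CPM used a prior count of 0.5 scaled to depth, with exact conditional (Clopper-Pearson) 95% intervals on molecule-equivalents. The background was formed by genes with 20 or more molecule-equivalents in the compared libraries together, and called means at least 2-fold. Intervals were tried on counts simulated from the lymph node libraries with Poisson error. That covers neither the colon libraries nor error beyond counting. All 9 members were named, and of the wider list at most 4 of the highest and 4 of the lowest per comparison. One role group of the wider list, though part of its sum, is not reported here. The members and lists were chosen with earlier results of these data known. A further sample, a sheet of 16 barcodes named as replicates, was not used, since 0 of the 16 occur in the colon control table. All 16 occur in the colon light, lymph node light and lymph node control tables. Because columns overlap, those columns were not taken as replicates there either. Alternatives changed the scaling, total, prior, filter, depth, unit, barcodes, repeats and list members. The software was Python 3.11.15 with numpy 2.4.6, scipy 1.17.1, pandas 2.3.3 and, for plots, matplotlib 3.10.9.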

Additional observations from a re-analysis of the deposited data

Results flagged for a closer look

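Actg1 was higher after light in the colon and lower after light in the lymph node, and the log2 ratios differed by 2.69. The sum of the 9 cytoskeleton genes likewise was higher after light in the colon and lower after light in the lymph node, and the log2 ratios differed by 2.28. The direction of the sum in the lymph node depends on the scaling: it was 0.30 (0.13 to 0.47) when scaled to all genes counted in both libraries. Scaled to well-counted genes, the sum in the colon was 0.23 (-0.28 to 0.79) and the difference 0.25, and the difference for Actg1 was 0.66. Each tissue had 1 library with light and 1 without, so these differences between the tissues were not tested. Both rest on the colon control library, which had 2.39 molecule-equivalents of Actg1 and 31.8 of the 9 genes together.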

How the results depend on the processing

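Of 748 values recomputed for 78 results under 13 settings, 622 stayed inside the main interval or a set limit, 113 moved beyond it and 13 turned direction. A turn was counted only where the main value was at least 2-fold or its interval left out 0. Other changes of sign inside the main interval are among the 622. An example is Pfn1 in the colon light against the lymph node light, from -0.24 to as high as 0.31. Some of the 622 could not move, since the count filter does not enter the ratio of a gene or a sum. No paired analysis was possible because each group had 1 library. Leaving out a replicate was not possible for the same reason. Scaling to well-counted genes and counting each recovered molecule once were chosen after seeing the data. The colon control holds 6210 molecule-equivalents, which limits every comparison that uses it.

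Scaling by median-of-ratios over all genes counted in both libraries put the 9-gene sum at 0.30 in the lymph node (light against control), 3.44 in the colon and -0.12 in the colon light against the lymph node light, and the difference of the light ratios at 3.14. It put the wider list at 0.30 in the lymph node, 3.13 in the colon and 0.079 in the colon light against the lymph node light. In the lymph node it left 1 member past 2-fold on the higher side and 0 on the lower side, and in the colon light against the lymph node light 1 on the lower side.

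Scaling to well-counted genes put the sum at 0.23 in the colon, -0.32 in the colon light against the lymph node light and -0.51 in the colon control against the lymph node control, and the difference of the light ratios at 0.25. It put the wider list at -0.077, -0.12 and -0.00077 in those comparisons. Light ratios in the colon turned to -0.30 for Tmsb4x, -0.63 for Tmsb10 and -0.73 for Cfl1, and their difference from the lymph node to -0.33 for Tmsb4x and -0.98 for Cfl1. In the colon control against the lymph node control, Tmsb10 turned to 0.36, Cfl1 to 0.31 and the median of all genes to 0.26. It left 1 member at least 2-fold higher in the lymph node and 1 in the colon, and 1 at least 2-fold lower in each tissue comparison.

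Without ribosomal RNA and Gm12374, the sum was -0.29 and the wider list -0.088 in the colon light against the lymph node light, with 1 member at least 2-fold lower. With each recovered molecule counted once that count was 1 as well. With 100 molecule-equivalents as the limit, fewer genes are tested, and the counts past 2-fold were 0 lower in the lymph node, 2 higher in the colon, 0 lower in the colon light and 2 lower in the colon control against their lymph node libraries, the median of all genes in the last comparison turning to 2.39. With no limit, or with the deposited sums taken as raw counts, 9 members were past 2-fold in the colon and 9 in the colon control against the lymph node control, since genes at 0 enter. Thinning the deeper library left 0 lower in the lymph node and 2 higher in the colon, where the median of all genes turned to -2.83. Where no construction of the setting shows it, the cause was not tested.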
